A study of Mus musculus with 10 samples.

Results

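The genes described here encode the invariant chains of the T cell receptor complex, the surface receptors that act beside it, and the factor and cytokine receptor chain that mark regulatory T cells. They were the 10 symbols *Cd3e*, *Cd3d*, *Cd3g*, *Cd247*, *Cd4*, *Cd2*, *Cd28*, *Icos*, *Foxp3* and *Il2ra*, chosen by name, and all 10 had a row among the 55401 gene rows of the count tables. The counts came from bulk RNA-seq of 10 subcutaneous B16F10 tumors, a mouse melanoma line of C57BL/6 origin, grown in adult female C57BL/6J mice. The 5 *Mir25* KO tumors arose from cells edited with CRISPR-Cas9 at the microRNA gene *Mir25*, and the 5 NTC tumors from cells given a non-targeting control. Every mouse received Comb, which is GVAX plus αPD-1, so both groups carried the same treatment and no untreated tumor was compared. According to the labels, 50000 tumor cells were injected, 1000000 irradiated GM-CSF-secreting B16 cells followed on days 1 and 4, an antibody to PD-1 was given at 10 mg/kg on days 6, 9 and 12, and tumors were taken on day 15. The paper's methods give a larger number of injected B16 cells than the labels, so that dose is uncertain. The sources used here do not say which guide or clone gave rise to these tumors. The host, and therefore its T cells, was not edited.

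A T cell reads antigen through a variable receptor pair that has no signalling tail of its own. CD3 epsilon, delta and gamma and the CD247 zeta chain associate with that pair and carry the tyrosine motifs that Lck phosphorylates, while CD4 holds MHC class II, CD28 and ICOS deliver costimulation and CD2 adhesion. Regulatory T cells, which restrain immune responses in tumors, are defined by the transcription factor FOXP3 and carry much of the IL-2 receptor alpha chain IL2RA. Several of these transcripts are not restricted to T cells, since CD247 also signals in NK cells, CD2 is found on NK and B cells, and ICOS and IL2RA occur on group 2 innate lymphoid cells.

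The 3 CD3 genes lie side by side on chromosome 9, and their start regions are shown because their levels moved together over the tumors, as described below. In GENCODE M21 on GRCm38, *Cd3g* (44969572-44980431, minus strand) and *Cd3d* (44981786-44987339, plus strand) pointed away from each other with 1354 bases between them, and *Cd3e* (44998740-45009627, minus strand) followed 11400 bases further on. The RefSeq promoter table (GRCm38.p6) held windows from 250 bases before to 50 bases after the start for *Cd3e*, *Cd3d*, *Cd3g*, *Cd247*, *Foxp3* and *Il2ra*. The 250 bases before each CD3 start and the first 10 bases from it read, 5′ to 3′, with matches to the ETS core AGGAAG on either strand in capitals:
*Cd3e* (chr9:45009602-45009861, minus strand): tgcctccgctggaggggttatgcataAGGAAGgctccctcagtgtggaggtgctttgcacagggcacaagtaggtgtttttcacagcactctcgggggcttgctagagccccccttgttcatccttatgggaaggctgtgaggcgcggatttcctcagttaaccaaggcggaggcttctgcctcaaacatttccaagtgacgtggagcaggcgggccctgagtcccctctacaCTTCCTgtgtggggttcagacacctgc
*Cd3d* (chr9:44981536-44981795, plus strand): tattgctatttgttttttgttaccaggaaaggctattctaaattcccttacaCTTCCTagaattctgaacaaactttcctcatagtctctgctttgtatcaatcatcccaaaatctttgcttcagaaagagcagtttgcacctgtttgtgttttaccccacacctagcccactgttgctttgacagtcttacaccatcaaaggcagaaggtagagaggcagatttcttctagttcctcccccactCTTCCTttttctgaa
*Cd3g* (chr9:44980422-44980681, minus strand): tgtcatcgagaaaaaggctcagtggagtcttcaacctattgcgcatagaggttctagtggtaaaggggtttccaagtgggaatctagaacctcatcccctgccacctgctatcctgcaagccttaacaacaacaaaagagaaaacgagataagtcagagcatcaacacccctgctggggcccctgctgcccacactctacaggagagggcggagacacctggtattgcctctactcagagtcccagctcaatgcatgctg
The *Cd3e* matches began at -224 and -17 and those of *Cd3d* at -198 and -5, counting the start base as 0. The *Cd3g* window held no such match. The same letters occurred in 35.4% of all 32851 promoters of this length, so their presence does not set these windows apart. *Cd247* had 2 matches, *Il2ra* had 1, and of the *Foxp3* windows 1 had a match. The RUNX letters TGTGGT, found in 16.8% of promoters, were in none of these windows. The E-box letters CANNTG, found in 72.3% of promoters, occurred 2 times in the *Cd3e* window, 1 time in that of *Cd3d* and 4 times in that of *Cd3g*, and the TATA letters TATAAA, in 13.6% of promoters, occurred only in the upstream *Foxp3* window.

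The microRNA edited in the tumor cells is shown with its seed, bases 2 to 8, in capitals, beside the only match to it among the members:
miR-25-3p (chr5:138165332-138165353, minus strand): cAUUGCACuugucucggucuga
*Cd247* 3′ UTR, match in capitals: gcttgtgtGTGCAATccatgcaa
A match to the seed in the 3′ UTR was found for *Cd247* alone among the 10 genes, at base 1792 of 2031, against 1457 of 21022 genes with a 3′ UTR (6.93%). The match is a description of letters and not evidence of binding.

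The library labelled NTC replicate 1 stood apart, so the members' differences, the counts over gene lists and the ratios are also given without it. It had 11896643 reads on genes against 23243707 to 28682130 in the other 9, counts on 33193 genes against 22192 to 25435, and 42.95% of its reads outside genes against 17.47% to 28.18%. *Mir25* itself had 0 reads in every library, which gives no check of the deletion. *Btn2a2*, a butyrophilin gene picked because it was known to part these libraries, had 35.8 to 120.3 CPM (counts scaled to the normalized library size) in KO tumors and 0.0328 to 0.536 CPM in NTC tumors. Since it was picked for this difference, its agreement with the labels was fixed in advance and is no check of the labels or of the deletion.

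Transcripts of the T cell receptor complex and its partners had higher mean levels in KO than in NTC tumors, but none of the differences passed the test. All 9 genes with enough reads to be tested had a positive log2 fold change, with a median of 1.31 and a range from 0.85 to 1.40. *Foxp3* was too low to pass the filter on low counts. The 9 adjusted p-values ran from 0.516 to 0.776 by edgeR's quasi-likelihood test, and 0 of the 9 were called at an adjusted p under 0.05 and an absolute log2 fold change above 1. In that test over 15821 genes, 0.00632% were called higher and 0.0126% lower. An unadjusted p under 0.05 was reached by 2 of the 9, *Cd3g* and *Il2ra*, against 3.99% of all genes tested on the higher side and 4.85% on the lower side. A log2 fold change above 1 was found for 8 of the 9, against 3.43% of all genes. The members were high and low in the same tumors, as described below, so counts of members are not separate observations. The median log2 fold change over all genes was 0.01. No member had every KO value above every NTC value, which held for 0.866% of all genes. In bulk tumors, more T cells and more of a transcript per T cell cannot be told apart.

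Without NTC replicate 1 the differences were larger and still uncalled. The median of the 9 log2 fold changes was 1.54, with a range from 1.33 to 2.00, and the adjusted p-values ran from 0.164 to 0.350. An unadjusted p under 0.05 was reached by *Cd3e*, *Cd3g*, *Cd4* and *Il2ra*, so 4 of 9. That library also moved the background: 12% of the 16078 genes tested reached this p on the higher side and 8.1% on the lower side, 10.5% had a log2 fold change above 1, and 2.71% had every KO value above every remaining NTC value. Calls were made for 0.0124% of genes on the higher side and 0.0933% on the lower side. Leaving out KO replicate 5 took the members' median in the other direction, to 0.88, with adjusted p-values from 0.859 to 0.983.

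*Cd3e*, the chain around which the CD3 pairs assemble, had 9.39, 11.4, 2.12, 1.91 and 10.8 CPM in KO replicates 1 to 5. In NTC replicates 1 to 5 it had 7.14, 0.854, 1.33, 0.732 and 3.96 CPM. KO replicates 1, 2 and 5 lay above every NTC tumor, while KO replicates 3 and 4 fell below NTC replicates 1 and 5, so the groups overlapped. The means were 7.12 ± 4.71 and 2.80 ± 2.76 CPM (SD, n = 5 each), and the log2 fold change was 1.40 (SE 0.75, edgeR adjusted p = 0.631). Without NTC replicate 1 the NTC mean was 1.72 ± 1.51 CPM (n = 4) and the log2 fold change 2.00 (SE 0.70, edgeR adjusted p = 0.190), the highest of the 9 in that fit.

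*Cd3g*, which pairs with CD3 epsilon, was the most abundant member and so rested on the most reads, 115 to 1022 per tumor. It had 20.1, 37.8, 10.7, 8.0 and 45.5 CPM in KO replicates 1 to 5. In NTC replicates 1 to 5 it had 16.0, 5.25, 7.07, 4.68 and 16.6 CPM. The same 3 KO tumors, replicates 1, 2 and 5, were above all NTC tumors, and all 5 were above the NTC median. The log2 fold change was 1.31 (SE 0.55, unadjusted p = 0.0373, edgeR adjusted p = 0.516) and 1.5 (SE 0.57, edgeR adjusted p = 0.205) without NTC replicate 1. *Cd3d*, the other partner of CD3 epsilon, ranged from 1.37 to 14.0 CPM in KO and from 0.813 to 5.72 CPM in NTC tumors, with a log2 fold change of 1.35 (SE 0.70, edgeR adjusted p = 0.626), or 1.54 (SE 0.73) without NTC replicate 1.

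*Cd247*, the zeta chain with most of the signalling motifs, ranged from 2.52 to 15.2 CPM in KO and from 1.10 to 7.15 CPM in NTC tumors. Its log2 fold change was 1.13 (SE 0.66, edgeR adjusted p = 0.646), or 1.37 (SE 0.68) without NTC replicate 1. Of its 5329 exonic bases, 60.3% were shared with other annotated genes, 3007 of them with *Pou2f1* on the opposite strand. Whether reads were counted by strand is not given in the sources used here, so part of its count could belong to, or have been lost to, its neighbours.

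*Cd4*, the coreceptor of helper and regulatory T cells, had 4.39, 8.05, 2.56, 1.84 and 8.01 CPM in KO replicates 1 to 5. In NTC replicates 1 to 5 it had 7.01, 0.0985, 1.67, 1.14 and 2.67 CPM. NTC replicate 2 stood out with 3 reads, although that tumor held 26 reads of *Cd3e* and 136 of *Cd8a*, and NTC replicate 1 was above 3 of the 5 KO tumors. The log2 fold change was 1.05 (SE 0.81, edgeR adjusted p = 0.734) and 1.79 (SE 0.72, edgeR adjusted p = 0.220) without NTC replicate 1. *Cd2*, the adhesion receptor that binds CD48 in mice, ranged from 2.34 to 19.97 CPM in KO and from 1.51 to 9.97 CPM in NTC tumors, with a log2 fold change of 1.16 (SE 0.69, edgeR adjusted p = 0.657), or 1.49 (SE 0.70) without NTC replicate 1.

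The related costimulatory genes *Cd28* and *Icos* lie on chromosome 1 with *Ctla4* between them. *Cd28*, the receptor for CD80 and CD86, had 8 to 104 reads per tumor and a log2 fold change of 1.36 (SE 0.72, edgeR adjusted p = 0.631). It was 1.54 (SE 0.75) without NTC replicate 1 and 0.88 without KO replicate 5. Its lowest tumor was a KO tumor, replicate 4, at 0.288 CPM, and its highest was KO replicate 5, at 4.63 CPM. *Icos*, whose product appears on activated T cells, had 2.38, 3.61, 0.371, 0.433 and 4.27 CPM in KO replicates 1 to 5. In NTC replicates 1 to 5 it had 3.10, 0.460, 0.505, 0.610 and 1.80 CPM. KO replicates 3 and 4 were the lowest of all 10 tumors, and *Icos* had the smallest log2 fold change of the 9, 0.85 (SE 0.79, edgeR adjusted p = 0.776). That value was 1.33 (SE 0.77, edgeR adjusted p = 0.350) without NTC replicate 1 and 0.47 without KO replicate 5.

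*Il2ra*, the chain that raises the affinity of the IL-2 receptor, had 4.35, 3.38, 0.842, 1.51 and 4.63 CPM in KO replicates 1 to 5. In NTC replicates 1 to 5 it had 2.69, 0.624, 0.757, 0.691 and 1.39 CPM. All 5 KO tumors lay above the NTC median and 3 above every NTC tumor, or 4 of 5 once NTC replicate 1 was left out. The log2 fold change was 1.33 (SE 0.56, unadjusted p = 0.0391, edgeR adjusted p = 0.523) and 1.72 (SE 0.51, unadjusted p = 0.00741, edgeR adjusted p = 0.164) without that library. The latter was the smallest adjusted p of any member without NTC replicate 1, as that of *Cd3g* was with it.

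*Foxp3* was near the limit of detection in both groups. It had 15, 20, 2, 1 and 13 reads in KO replicates 1 to 5 and 0, 0, 2, 6 and 9 reads in NTC replicates 1 to 5. KO replicates 1, 2 and 5 had more reads than any NTC tumor, and KO replicates 3 and 4 had fewer than NTC replicates 4 and 5. A count of 0 allows up to 3 reads, which was 0.402 CPM in the shallow NTC replicate 1 and 0.0984 CPM in NTC replicate 2, for counting error alone. The means were 0.411 ± 0.335 CPM in KO and 0.124 ± 0.145 CPM in NTC tumors (SD, n = 5 each), the latter 0.155 ± 0.147 (n = 4) without NTC replicate 1. Fitted with no filter on low counts, it had a log2 fold change of 1.58 (SE 1.02, edgeR adjusted p = 0.521) and was not called. The parts of low depth and of the spread between tumors in that result were not tested. Its exons share 31.5% of their bases with other annotated genes, including *Flicr* on the same strand, which adds to the uncertainty of so low a count.

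**Figure D1:**
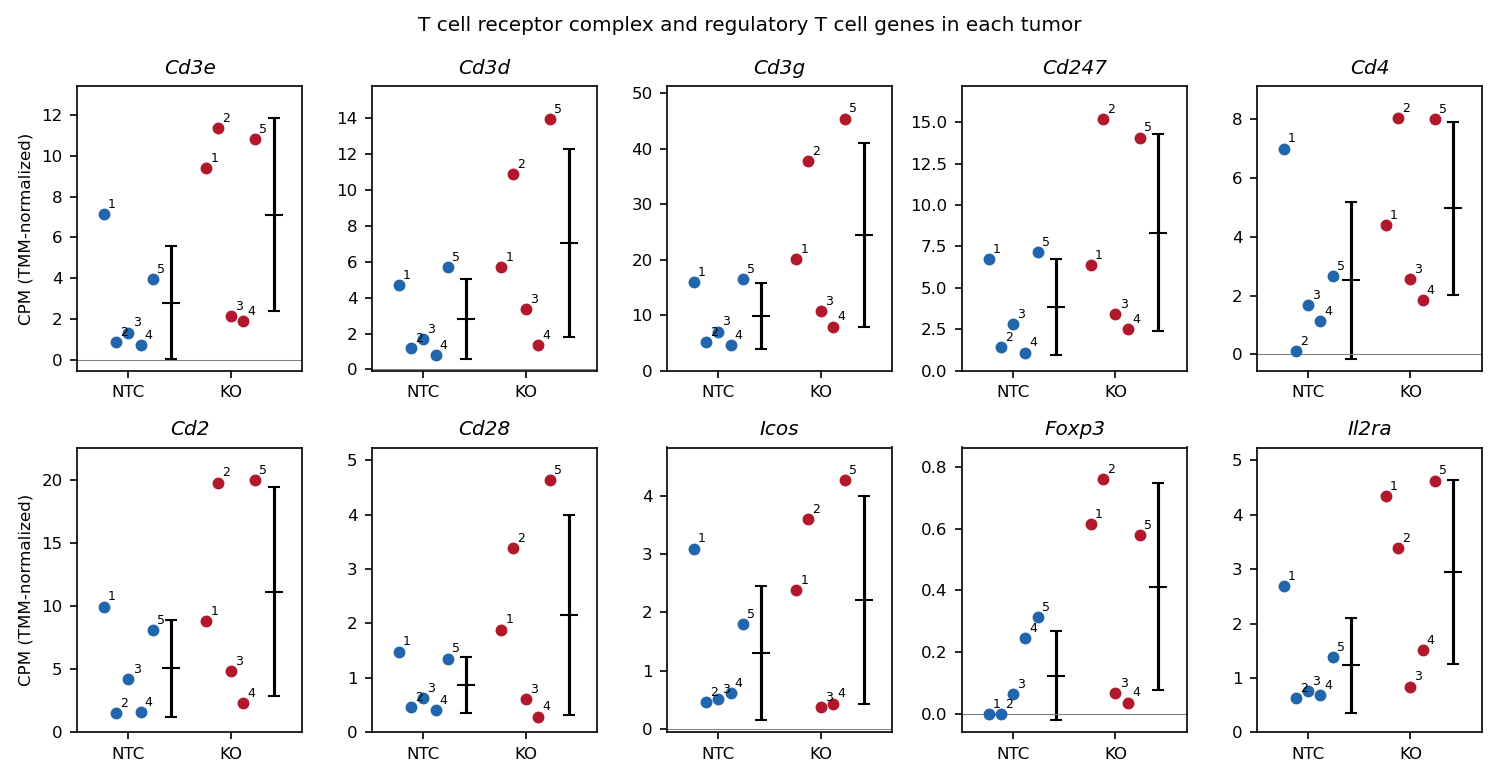
CPM (TMM-normalized, linear axis from 0) of each of the 10 genes in 5 NTC and 5 KO tumors, with points numbered by replicate and bars giving the mean and SD of the 5. KO replicates 1, 2 and 5 are the high tumors of that group for every gene, KO replicates 3 and 4 lie within or below the range of the NTC tumors, and NTC replicate 1 is the highest NTC tumor or the next one for all but *Foxp3*.

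The tumors of each group spread widely. Summed over the 10 genes, KO replicates 1 to 5 had 64.0, 114.2, 28.9, 20.3 and 126.4 CPM, and NTC replicates 1 to 5 had 58.9, 11.9, 20.7, 12.0 and 49.0 CPM. KO replicate 5 was the highest tumor for 6 of the genes and KO replicate 2 for the other 4. NTC replicate 4 was the lowest for 4 and NTC replicate 2 for 3, with *Foxp3* at 0 in both NTC replicates 1 and 2. KO replicate 3 was the lowest for *Icos* and KO replicate 4 for *Cd28*.

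Per kilobase of exon, the mean levels over the 10 tumors ran from *Cd3g* at 5.25 ± 4.28 CPM per kilobase (SD, n = 10), through *Cd2* at 4.66 ± 3.95 and *Cd3d* at 2.72 ± 2.43, to *Cd3e* at 1.22 ± 1.05, *Cd247* at 1.14 ± 0.94 and *Cd4* at 0.93 ± 0.73. *Icos* at 0.51 ± 0.44, *Il2ra* at 0.37 ± 0.27, *Cd28* at 0.25 ± 0.24 and *Foxp3* at 0.06 ± 0.06 followed. Each gap between neighbours was smaller than the SD of the higher gene, so the means alone do not order them, but within a tumor parts of the order held throughout. *Cd2* was above *Cd3d*, *Cd3d* above *Cd3e*, *Il2ra* above *Cd28* and *Cd28* above *Foxp3* in 10 of 10 tumors. *Cd4* was above *Icos* in 9 of 10 tumors, and *Cd3g* above *Cd2* and *Cd247* above *Cd4* in 8 of 10. *Icos* was above *Il2ra* in 7 of 10 and *Cd3e* above *Cd247* in 3 of 10, so those neighbours had no steady order.

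The members were high and low in the same tumors. Over the 10 tumors, the Pearson correlation of log2 CPM with *Cd3e* was 0.958 for *Cd3g* (permutation p = 3e-05, adjusted over 9 relations 0.00024, Spearman's rho 0.976). It was 0.956 for *Il2ra*, 0.955 for *Cd247*, 0.947 for *Cd2*, 0.943 for *Cd3d*, 0.910 for *Cd28* and 0.856 for *Cd4*, each with an adjusted permutation p of at most 0.000746 and with rho from 0.891 to 0.976. Leaving out KO replicate 2 and NTC replicate 4, the tumors farthest from the median of *Cd3e*, these 7 values stayed between 0.859 and 0.955, and after centring each group on its own mean they stayed between 0.807 and 0.943. *Icos* fell into 5 tumors at or below -0.54 log2 CPM and 5 at or above 0.91, a gap of 0.443 of its range. A pooled correlation was therefore not read from it. The widest gaps of *Cd3e*, *Cd28* and *Foxp3* also parted 5 tumors from 5, at 0.229, 0.275 and 0.335 of their ranges. That of *Cd4*, at 0.504, set NTC replicate 2 apart. The pooled values of these genes carry part of the same limit. *Foxp3* gave 0.605 (permutation p = 0.0696, rho 0.632, permutation p = 0.0569), and 0.692 without the farthest tumors. It gave 0.828 without NTC replicate 1 (permutation adjusted p = 0.0115) and 0.755 without NTC replicate 4 (permutation adjusted p = 0.0264), so its relation to *Cd3e* turned on those libraries. Groups of 5 tumors were too small for correlations of their own.

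**Figure D2:**
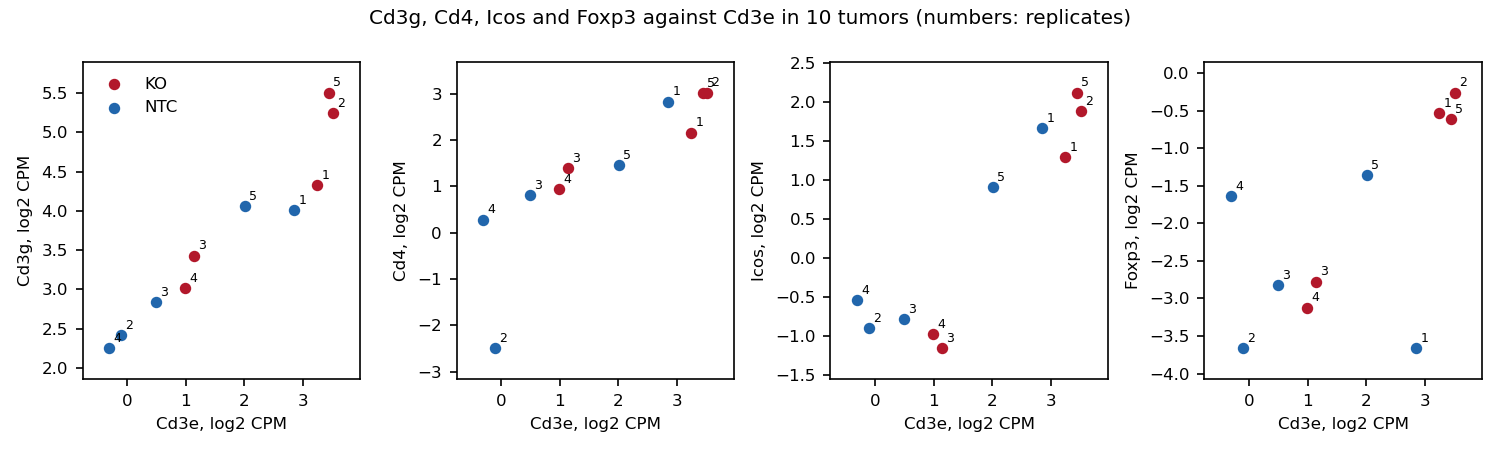
log2 CPM of *Cd3g*, *Cd4*, *Icos* and *Foxp3* against log2 CPM of *Cd3e* in the 10 tumors, with points numbered by replicate. *Cd3g* follows *Cd3e* closely (r = 0.958), NTC replicate 2 lies low for *Cd4*, *Icos* forms a lower and an upper set of 5 tumors each, and NTC replicates 1 and 4 lie off the trend of *Foxp3*.

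The genes whose log2 CPM over the 10 tumors was most like that of *Cd3e*, out of 13907 genes with a mean of at least 1 CPM, were *Nfatc1* (r = 0.994), *Zfyve28* (0.990), *Sema4d* (0.989), *Cd180* (0.988) and *Ucp2* (0.983). *Nfatc1* encodes a calcium-driven transcription factor of lymphocytes, *Sema4d* a leukocyte semaphorin and *Cd180* a Toll-like receptor relative of B cells and myeloid cells. The members themselves stood at places 130 (*Cd3g*) to 1481 (*Cd4*) of that ranking, so *Cd3e* was no closer to the other CD3 chains than to more than 100 other genes. This ranking is a description of libraries that differ in leukocyte content and depth. For *Foxp3* the closest of 13908 genes were *Tmem127* (0.931), *Arhgap27* (0.924), *Ncoa1* (0.902), *6330403L08Rik* (0.896) and *Mon2* (0.886), but counts of 0 to 20 reads carry little information on likeness.

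Leukocyte transcripts other than these moved with them. The mean log2 CPM of 10 pan-leukocyte genes such as *Ptprc* was 6.43, 7.26, 5.55, 5.40 and 7.44 in KO replicates 1 to 5 and 7.13, 4.34, 5.60, 4.32 and 6.04 in NTC replicates 1 to 5, which is nearly the tumors' order for the T cell genes. All 10 of that list had a positive log2 fold change, with a median of 0.79, and their summed level ran from 720.0 to 2687 CPM in KO and from 464.6 to 2231 CPM in NTC tumors, the highest of which was NTC replicate 1. An unadjusted p under 0.05 was reached by 0 of the 10, and without NTC replicate 1 by 7 of the 10, with a median of 1.43. With that score as a covariate in the edgeR fit, the members' median log2 fold change was 0.21, with a range from -0.45 for *Icos* to 0.60 for *Il2ra*, 0 of 9 reached an unadjusted p under 0.05, and *Cd28* (-0.04) also changed sign. T cells also express genes of this score, so it is not independent of the members.

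**Figure D3:**
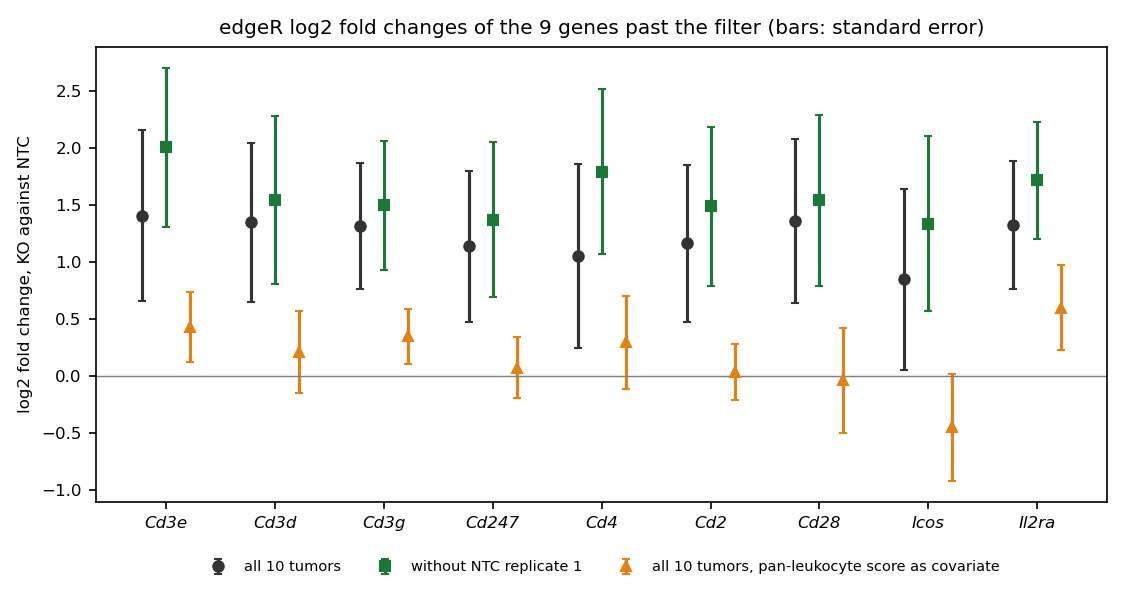
edgeR log2 fold change of KO against NTC for the 9 genes past the filter, with bars giving the standard error, in all 10 tumors, without NTC replicate 1 and with the pan-leukocyte score as a covariate. The median moves from 1.31 to 1.54 without NTC replicate 1 and to 0.21 with the score, where *Icos* and *Cd28* fall below 0.

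Markers of the other cell types were read in the same way. Macrophage and monocyte genes summed to 513.7 to 2262 CPM in KO and 151.4 to 1961 CPM in NTC tumors, 6 of 7 with a positive log2 fold change (median 0.79) and 0 with an unadjusted p under 0.05. Without NTC replicate 1, itself at 1961 CPM, the other NTC tumors ran from 151.4 to 727.7 CPM, all 7 genes were positive with a median of 1.72, and 6 of the 7 had an unadjusted p under 0.05. *C1qa* was the highest of them at 457.1 ± 281.8 against 264.2 ± 231.8 CPM (SD, n = 5 each). NK cell genes summed to 6.45 to 30.3 and 2.81 to 27.9 CPM, with 5 of 6 tested positive (median 0.33) and 0 with an unadjusted p under 0.05, or 6 of 6 positive (median 0.69) and 1 with such a p without NTC replicate 1. B cell genes summed to 7.75 to 36.8 CPM in KO and 2.56 to 18.2 CPM in NTC tumors. *Cd22* led that sum, at means of 17.0 CPM in KO and 5.01 CPM in NTC tumors. The median log2 fold changes of the list were 0.83 and, without NTC replicate 1, 1.49. Of the 3 tested, *Cd22* had a log2 fold change of 1.79 (SE 0.60, edgeR adjusted p = 0.398) while *Ms4a1* had -0.86 (SE 0.98, edgeR adjusted p = 0.823), and these became 2.08 and -0.02 without NTC replicate 1. Dendritic cell genes summed to 16.8 to 47.1 and 10.0 to 25.8 CPM, and all 6 had a positive log2 fold change in both fits (medians 1.16 and, without NTC replicate 1, 1.61). *Ccr7* had the largest of them, 1.96 (SE 0.52, unadjusted p = 0.0033, edgeR adjusted p = 0.247), followed by *Clec9a* at 1.89 (SE 0.62, edgeR adjusted p = 0.379).

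Genes of group 2 innate lymphoid cells, which share *Icos* and *Il2ra* with T cells, summed to 55.6 to 69.8 CPM in KO and 68.0 to 99.5 CPM in NTC tumors, a sum led by *Rora*. Of the 4 tested, 3 had a positive log2 fold change (median 0.38, or 1.38 without NTC replicate 1), and *Rora* was the one below 0 (-0.47, SE 0.14, unadjusted p = 0.00773, edgeR adjusted p = 0.322). *Il1rl1*, the IL-33 receptor, had 0.33 (SE 0.86), or 1.63 (SE 0.63, edgeR adjusted p = 0.212) without NTC replicate 1. *Klrg1*, an inhibitory receptor that T and NK cells also carry, had a log2 fold change of 1.88 (SE 0.37, unadjusted p = 0.000436, edgeR adjusted p = 0.138). Lymph node genes summed to 5.48 to 26.2 and 3.25 to 27.2 CPM, the 2 tested had a median of 0.54 (1.23 without NTC replicate 1), and *Ccl21a*, the lymphoid stromal chemokine, had no read in any tumor. Melanoma genes summed to 11770 to 19340 CPM in KO and 11280 to 21330 CPM in NTC tumors, led by *Tyrp1*, so melanoma transcripts were abundant in every library. The lowest NTC sum was that of NTC replicate 1, and the other NTC tumors ran from 18960 to 21330 CPM, against a KO median of 14970 CPM. Of the 7 genes, 1 had a positive log2 fold change (median -0.05), and without NTC replicate 1 all 7 were negative (median -0.22), 2 of them with an unadjusted p under 0.05. The part of these cell types in the members' differences was not tested beyond the covariate.

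Most other genes of the pathway also had positive log2 fold changes, and none was called. Beside the 4 members among the T cell receptor chains, 3 others were tested, and all 3 were positive (median 1.12, or 1.53 without NTC replicate 1), with *Trbc2*, the constant region of the beta chain, at 18.7 ± 13.3 CPM in KO and 8.75 ± 7.43 CPM in NTC tumors (SD, n = 5 each) and *Trac*, that of the alpha chain, at 10.5 ± 7.99 and 5.02 ± 3.62 CPM. The coreceptor chains *Cd8a* and *Cd8b1* of cytotoxic T cells had log2 fold changes of 1.03 (SE 0.59) and 1.19 (SE 0.65), with edgeR adjusted p = 0.646 and 0.635. In TCR-proximal signalling, 21 of 23 genes were positive and 0 had an unadjusted p under 0.05 (median 0.79), and without NTC replicate 1 that p was reached by 11 of 23, with 20 positive and a median of 1.31. *Sh2d1a*, the adaptor SAP of lymphocyte receptors, had the lowest p there, with a log2 fold change of 1.42 (SE 0.68, edgeR adjusted p = 0.594), ahead of *Rasgrp1*, which links the receptor to Ras, at 1.29 (SE 0.64, edgeR adjusted p = 0.609). The most abundant genes of that list had log2 fold changes of 0.01 (SE 0.12) for *Nfatc2*, a calcium-driven transcription factor, and -0.05 (SE 0.16) for *Plcg1*, the phospholipase of the receptor cascade.

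Among costimulatory receptors and ligands, 6 of the 9 tested that were not members were positive (median 0.71, or 1.27 without NTC replicate 1). *Tnfrsf9*, which encodes 4-1BB, was the exception with a low p: it had 21.7 ± 8.72 CPM in KO and 38.7 ± 11.3 CPM in NTC tumors (SD, n = 5 each), a log2 fold change of -0.84 (SE 0.29, unadjusted p = 0.0166, edgeR adjusted p = 0.420). Its NTC mean was above that of *Cd3g*, the most abundant member, at 9.92 CPM, and which cells its reads came from was not tested. *Cd48*, the ligand of CD2, had a log2 fold change of 1.05 (SE 0.73, edgeR adjusted p = 0.713), and *Cd27*, a costimulatory receptor of the TNF receptor family, had 1.28 (SE 0.62, edgeR adjusted p = 0.598). In the IL-2 receptor pathway, beside *Il2ra*, all 9 tested were positive with a median of 0.27, and *Cish* alone had an unadjusted p under 0.05. Once NTC replicate 1 was left out, 8 of the 9 were positive (median 0.38) and 3 had such a p. *Cish*, a target of STAT5 that damps cytokine signalling, had 4.95 ± 1.71 CPM in KO and 2.47 ± 0.83 CPM in NTC tumors (SD, n = 5 each) and a log2 fold change of 1.00 (SE 0.32, unadjusted p = 0.0106, edgeR adjusted p = 0.366). *Stat5b* (0.02, SE 0.08) and *Jak1* (0.20, SE 0.23) were the most abundant of the list.

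The regulatory T cell associated genes included *Foxp3* and *Il2ra* and had 13 of 18 past the filter. The 12 beside *Il2ra* were positive with a median of 0.52, and 0 had an unadjusted p under 0.05. When NTC replicate 1 was left out, 14 others were tested, all positive with a median of 1.09, and 3 had such a p. *Ctla4*, the inhibitory relative of CD28, had 2.44 ± 1.76 CPM in KO and 1.23 ± 0.54 CPM in NTC tumors (SD, n = 5 each), a log2 fold change of 0.99 (SE 0.56, edgeR adjusted p = 0.643). *Ikzf2*, which encodes Helios, had 0.08 (SE 0.16), and *Entpd1*, the ectonucleotidase CD39 that macrophages also carry, had 1.06 (SE 0.69, edgeR adjusted p = 0.689). *Ikzf2* had mean levels of 25.9 CPM in KO and 24.4 CPM in NTC tumors, against 0.411 and 0.124 CPM for *Foxp3*. Which cells its reads came from was not tested. Of the 13 lineage regulators, 11 were positive (median 0.61, or 0.996 without NTC replicate 1) and 0 had an unadjusted p under 0.05. *Eomes*, a regulator of cytotoxic cells, had a log2 fold change of 1.25 (SE 0.65, edgeR adjusted p = 0.625), against 0.22 (SE 0.12) for *Zbtb7b*, the CD4 lineage factor ThPOK, and -0.16 (SE 0.15) for *Ets1*.

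Ratios of reads between genes of one library do not depend on its normalization and ask whether the make-up of the T cell transcripts differed. Of 9 ratios compared by two-sided exact permutation tests, 0 passed adjustment. The smallest p that 5 against 5 tumors can give is 0.00794. The ratio nearest to a difference was *Icos* to *Cd3e*. *Icos* had 0.253, 0.318, 0.175, 0.226 and 0.395 reads per read of *Cd3e* in KO replicates 1 to 5, and 0.434, 0.538, 0.381, 0.833 and 0.456 in NTC replicates 1 to 5. Only KO replicate 5 and NTC replicate 3 overlapped. The mean log2 ratio of KO minus that of NTC tumors was -0.94 (-1.90 ± 0.43 against -0.96 ± 0.43, SD, n = 5 each, exact p = 0.0159, adjusted p = 0.143). Without NTC replicate 1 the difference was -1.0 (exact p = 0.0317, adjusted p = 0.0952), and with the sum of *Cd3e*, *Cd3d* and *Cd3g* as the denominator it was -0.70 (exact p = 0.0952).

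For *Cd28* to *Cd3e* the log2 difference, KO minus NTC, was -0.64 (exact p = 0.127), and for *Cd247* to *Cd3e* it was -0.36 (exact p = 0.278). Without NTC replicate 1 these became -0.87 and -0.54, each with an exact p of 0.0317 and an adjusted p of 0.0952. *Il2ra* to *Cd3e* differed by -0.30 (exact p = 0.421), or by -0.44 without NTC replicate 1. These ratios and that of *Icos* share *Cd3e* as denominator, so their p-values are not separate evidence. With the sum of *Cd3e*, *Cd3d* and *Cd3g* as the denominator and all tumors kept, the differences were smaller in size. They were -0.394 for *Cd28* (exact p = 0.1825), -0.115 for *Cd247* (exact p = 0.4762) and -0.056 for *Il2ra* (exact p = 0.8889). That denominator was not tested without NTC replicate 1.

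*Cd4* to *Cd8a*, the balance of the coreceptors, was nearly constant in KO tumors, at a mean log2 ratio of -1.99 ± 0.21 (SD, n = 5). In NTC tumors it was -2.68 ± 1.56 (SD, n = 5), a wide spread that rested largely on NTC replicate 2 at -5.285. The other NTC tumors ran from -2.823 to -1.28. The difference of the group means was 0.69 (exact p = 0.444). It was 0.04 (exact p = 0.889) without NTC replicate 2, the tumor with 3 reads of *Cd4*, and 1.04 (exact p = 0.159) without NTC replicate 1. *Cd4* to *Cd3e* differed by 0.15 (exact p = 0.897), by -0.45 without NTC replicate 2 and by 0.27 without NTC replicate 1.

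*Foxp3* took 0.0655, 0.0669, 0.0317, 0.0189 and 0.0535 reads per read of *Cd3e* in KO replicates 1 to 5, and 0, 0, 0.0476, 0.333 and 0.0789 in NTC replicates 1 to 5. The highest and the lowest values were both in NTC tumors. The log2 ratio was -4.35 ± 0.55 in KO and -4.33 ± 2.02 in NTC tumors (SD, n = 5 each), a difference of -0.02 (exact p = 0.968). *Foxp3* to *Cd4* differed by -0.17 (exact p = 0.881) and *Il2ra* to *Foxp3* by -0.28 (exact p = 0.786). With NTC replicate 1 left out the 3 differences were -0.62, -0.89 and 0.18, none with an exact p below 0.238. These ratios rest on 0 to 20 reads of *Foxp3*, and a share of regulatory T cells could not be compared from so few reads.

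**Figure D4:**
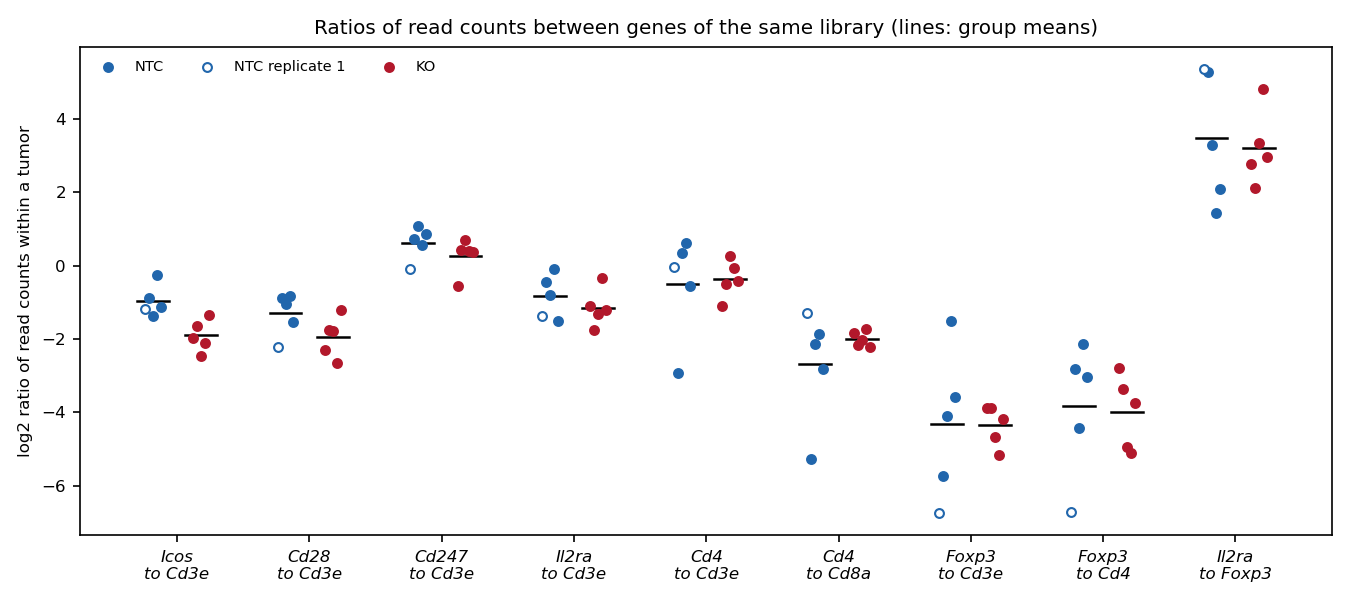
log2 ratio of read counts, with 0.5 added to each, between pairs of genes in the same tumor, for 9 pairs, with KO and NTC tumors as points, NTC replicate 1 as an open point and lines at the group means. *Icos* to *Cd3e* shows the least overlap (means -1.90 and -0.96), and the *Foxp3* ratios spread over several log2 units. *Cd4* to *Cd8a* is tight in KO tumors and wider in NTC tumors, largely through NTC replicate 2.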

How the data were processed

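The authors assessed reads with FastQC, trimmed them with Trimmomatic, aligned them to mm10 with HISAT2 and counted them with HTSeq, and deposited raw counts per gene for each tumor. The HTSeq version, the annotation and the strand setting are not given in the sources used here. Summary rows for reads outside genes (17.47% to 42.95%) stayed out of the library sizes. Groups and replicate numbers came from the labels. The members and lists were chosen with earlier results of these data known. P-values set a difference or a correlation against the variation between these tumors. Guide and clone were not given, so variation between guides or clones could not be judged.

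KO was compared with NTC by edgeR 4.0.16 (TMM, filterByExpr, quasi-likelihood test) on 15821 genes, and on 16078 without NTC replicate 1, with Benjamini-Hochberg adjustment over all genes tested. Genes were called at an adjusted p under 0.05 and an absolute log2 fold change above 1. A standard error is the absolute log2 fold change over the square root of F. CPM used TMM library sizes. Ratios had 0.5 added to each count and were tested by exact permutation. Correlations used 100000 resamples. DESeq2 1.42.0, other normalizations, filters, a replicate block, leaving out each tumor and a pan-leukocyte covariate were alternatives. Scripts were tested on simulated data. Other genes named were drawn from the 2 of highest mean CPM and the 2 of lowest p of each list and the 5 most like *Cd3e* and *Foxp3*. Gene models came from GENCODE M21, which matched 53292 of 55291 symbols, and promoters and the microRNA from RefSeq (GRCm38.p6). Of the list genes, *Tcrg-C1*, *Tcrg-C2*, *Tcrg-C4* and *Cd58* had no row in the tables analysed here.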

Additional observations from a re-analysis of the deposited data

Results flagged for a closer look

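Among 38 groups of 5 values examined, 1 held a tumor far from the other 4, and chance alone gives such a gap in about 1 of 20 groups. The groups share tumors and genes, so that rate is only a rough guide here. The log2 ratio of *Cd247* to *Cd3e* was -0.55 in KO replicate 1, while the other 4 KO tumors lay between 0.38 and 0.69, a gap of 0.749 of the group's range. That tumor had 156 reads of *Cd247* and 229 of *Cd3e*. Without it the difference of KO from NTC in this ratio was -0.16 in place of -0.36.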

How the results depend on the processing

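No member was called in any edgeR alternative. DESeq2 without a filter and without NTC replicate 1 called 2 of the 9 members, *Cd3e* (log2 fold change 2.05, DESeq2 adjusted p = 0.0306) and *Il2ra* (1.75, DESeq2 adjusted p = 0.0188). Over the 18601 genes tested there, 618 were called higher and 136 lower. With the same filter as the main test, DESeq2 called 24 higher and 72 lower of 15763 genes tested but 0 members. The 9 log2 fold changes were positive in every alternative but the pan-leukocyte covariate, where *Cd28* was -0.04 and *Icos* -0.453 and 4 genes were called higher and 5 lower. Over all genes, the call of 1 higher and 2 lower became 0 higher and 6 lower with at least 10 counts in every tumor, which left out *Cd4*, *Cd28* and *Foxp3*, 4 lower with no fold threshold, 4 lower with robust dispersion and 0 lower with no normalization factor, an alternative chosen after seeing the data. Leaving out each tumor gave 1 to 2 higher and 0 to 15 lower, and 0 to 4 members with an unadjusted p under 0.05. It was 0 without KO replicate 2 or 5 or NTC replicate 2, 3 or 4, 1 without KO replicate 1, 3 without KO replicate 3 and 4 without KO replicate 4 or NTC replicate 1. That count of members was higher in other alternatives. It was 8 of 9 with DESeq2 without a filter and without NTC replicate 1, where 2761 of 18601 genes reached this p on the higher side. With no filter on low counts it was 7 of 9, against 1143 of 40689 genes. With no normalization factor it was 6 of 9, against 1154 of 15821.

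Replicate numbers did not pair the tumors, since same-numbered deviations correlated from -0.287 to 0.633, and KO replicates 1 and 4 but not the other KO tumors correlated best with their own number. With a replicate block, 1 gene was called higher and 0 lower, and the members' median was 1.18 with 4 unadjusted p under 0.05 (adjusted p from 0.381 to 0.722).

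The ratios with *Foxp3* had no stable direction. *Foxp3* to *Cd3e* ran from -0.622 to 0.686 when single tumors were left out and was 0.228 with the summed CD3 genes. *Foxp3* to *Cd4* ran from -0.892 to 0.253, *Il2ra* to *Foxp3* from -0.8 to 0.182 and *Cd4* to *Cd3e* from -0.453 to 0.433. *Foxp3* itself had 0 to 20 reads a tumor and did not pass the filter.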
